A study of Callosobruchus maculatus with 24 samples.

Results

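In the seed beetle Callosobruchus maculatus, a pest of stored beans, 229 of 29812 listed genes formed a set that was abundant in male abdomens, scarce in female abdomens and heads and thoraces, and raised to a similar small share in a single head and thorax library. The set was chosen by measured levels in CPM, the count of a gene after scaling its library to a total of 1000000. A member had a mean of at least 50 CPM over the 6 male abdomens, a female abdomen mean of at most 1/16 of that, and a median over the 6 male heads and thoraces of at most 2% of it. In virgin male head and thorax replicate 1, a member lay from 4.2% to 9.5% of its own male abdomen mean. These levels chose the genes, so levels in male and female abdomens and in male heads and thoraces are given below as a description, with no test.

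RNA sequencing covered abdomens and, in libraries of their own, heads with thoraces. The groups were mated and virgin males and mated and virgin females of the strain South India, with 3 libraries for each sex, mating status and body part, 24 in all. Total counts were 7805440 to 10171662 per library. How beetles were mated, how old they were and how many were pooled is not given in the sources used here. The labels do not say that libraries of a group came from separate cultures; p-values measure the spread between these samples alone, and that spread may be technical.

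In beetles the male abdomen holds the testes and the accessory glands. The testes make sperm, and the glands make proteins and other components of the seminal fluid, which pass to the female with the ejaculate at mating. Many genes of these organs are little used in females or in the head and thorax, which hold the brain, the sense organs and the flight and leg muscles. The files do not pair the gene IDs with names, and no gene of this set can be given a product or a role. In the IDs, genes that share the text before the final g-number (TR53318|c0_g1 and TR53318|c0_g2, for example) belong to a common component of the listing, and how reads were divided between such genes is unknown. In whole abdomens, fewer cells of a type and less RNA per cell cannot be told apart.

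Of the 29812 genes, 2973 had a male abdomen mean of at least 50 CPM, 395 of these also met the limit in female abdomens, and 351 also met the limit in male heads and thoraces. These 351 are called male-limited below. The window in virgin male head and thorax replicate 1 kept 229 of them, or 65.2%, and left 85 male-limited genes below it and 37 above it. The lowest member stood at 4.49% and the nearest gene below the window at 4.05%. The highest member stood at 9.47% and the nearest gene above at 9.57%. At the other limits, the least abundant member had 50.1 CPM in male abdomens and the nearest gene left out 49.3 CPM. The highest female share among members was 5.14%, and the nearest of the 12 genes that failed that limit alone stood at 6.43%. The highest head and thorax median was 1.58% of the male abdomen mean, and the nearest of the 19 genes that failed that limit alone stood at 2.18%.

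The members took 6.31% ± 0.882 of all counts in mated male abdomens and 7.05% ± 0.669 in virgin male abdomens (SD, n = 3 each). Levels were spread unevenly over the genes. The median member had 130 CPM in male abdomens, with quartiles of 80.9 and 275 CPM, and the 6 most abundant members gave 25.7% of the summed level, the 50 most abundant 65.8%. CPM does not account for gene length, which the files do not give, so these shares describe reads and not molecules.

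The most abundant member was TR73921|c1_g1. It had 3673, 4650 and 4140 CPM in mated male abdomens and 4658, 5371 and 4866 CPM in virgin male abdomens. In female abdomens it had 44.9, 49.2 and 37.7 CPM in mated females and 55.5, 63.6 and 54.0 CPM in virgin females. In heads and thoraces it had 12.5, 18.2 and 13.8 CPM in mated males and 247, 8.44 and 32.1 CPM in virgin males, and in females 23.5, 27.2 and 23.9 CPM when mated and 12.9, 24.2 and 37.3 CPM when virgin. Replicate 1 of the virgin males thus lay above every other head and thorax library, and every male abdomen lay far above all libraries of the other groups.

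TR1055|c0_g1 came next, with 2969, 4177 and 3833 CPM in mated and 3255, 3991 and 3838 CPM in virgin male abdomens. Its female abdomen levels were 6.88, 6.86 and 7.38 CPM in mated and 9.39, 10.8 and 9.29 CPM in virgin females. Male heads and thoraces had 12.8, 8.71 and 4.82 CPM when mated and 212, 1.86 and 22.9 CPM when virgin. The 3 virgin male heads and thoraces differed from each other by far more than the 3 mated ones did.

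TR14521|c0_g1 had 2796, 2701 and 2505 CPM in mated and 2780, 3244 and 3041 CPM in virgin male abdomens. In female abdomens it had 49.3, 47.3 and 45.3 CPM in mated and 86.0, 26.7 and 25.2 CPM in virgin females, so that the virgin libraries lay on both sides of the mated ones. The next members by abundance, TR69690|c0_g1 and TR26266|c1_g1, were almost absent from females. TR69690|c0_g1 had 1836, 2519 and 2349 CPM in mated and 2126, 2549 and 2426 CPM in virgin male abdomens, against 0.688, 0.398 and 0.428 CPM in mated and 0.317, 1.09 and 0.408 CPM in virgin female abdomens. TR26266|c1_g1 had 1722, 2395 and 2174 CPM in mated and 1736, 2313 and 2156 CPM in virgin male abdomens and at most 1.31 CPM in any female abdomen. TR28181|c0_g1 had 1430, 1934 and 1576 CPM in mated and 1592, 1860 and 1688 CPM in virgin male abdomens. In 5 of these 6 genes the lowest male abdomen level was that of mated replicate 1, which held for most members, as described further on.

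**Figure D1:**
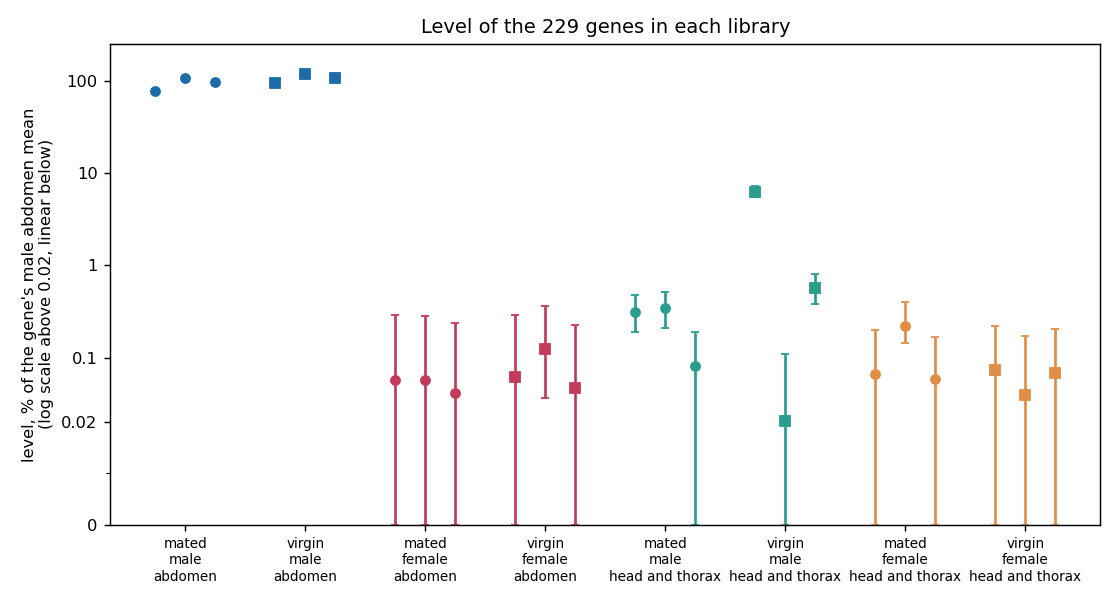
Level of the 229 members in each of the 24 libraries, as a percentage of each gene's mean over the 6 male abdomens, on an axis that is logarithmic above 0.02% and linear below. Points are medians over the genes and bars run from the lower to the upper quartile; circles are mated and squares virgin libraries. Medians are 77.0% to 117% in male abdomens, 6.17% in virgin male head and thorax replicate 1, and 0.0208% to 0.569% in all other libraries.

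In virgin male head and thorax replicate 1 the members had a median of 6.17% of their male abdomen mean, with quartiles of 5.52% and 7.21%, and 180 of the 229 lay from 5% to 8%. The window fixed the outer bounds of these values but not their place within it. A similar share among members was thus built in by the choice, and nothing is read from it. Summed over members, that library had 4113 CPM, 6.16% of the mean summed level of male abdomens. The lowest member in the window, TR69686|c0_g1, had 9.93 CPM there against a male abdomen mean of 221 CPM. The median one, TR3622|c0_g1, had 7.77 CPM against 126 CPM, and the highest one, TR47936|c0_g1, had 5.48 CPM against 57.8 CPM.

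The share differed little between scarce and abundant members, which the window largely fixed in advance. With members split by male abdomen level into 76 low, 76 middle and 77 high genes, the median share was 6.70% in the low, 6.12% in the middle and 6.06% in the high genes. The values of the members rested on 19 to 1937 counts in that library, with a median of 68. The median counting error (1 SD) was 12.1% of a value, and the SD of the shares between members was 0.26 on the log2 scale, in a range that the window itself narrows.

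The male-limited genes left out by the window differed in this library by construction. The 85 below it had a median share of 0.0659%, with 54 of them under 0.5%, although they were more abundant in male abdomens, with a median of 522 CPM and a highest value of 34840 CPM. Their summed level in that library was 0.334% of that in male abdomens. The 37 genes above the window had a median share of 11.7%. Male-limited genes of 5 to 50 CPM, too low to be members, had a median share of 7.37%, and 244 of these 445 fell within the window. A set of genes used in the abdomen of both sexes was drawn up for comparison. For 9 genes at 50 CPM or more in male abdomens that female abdomens matched within 2-fold and the other heads and thoraces had at a median of at most 2% of that level, the median share in this library was 0.691%, inside the range of 0.237% to 3.06% in the other 11 head and thorax libraries. How the RNA of the members came to be in this library was not tested.

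**Figure D2:**
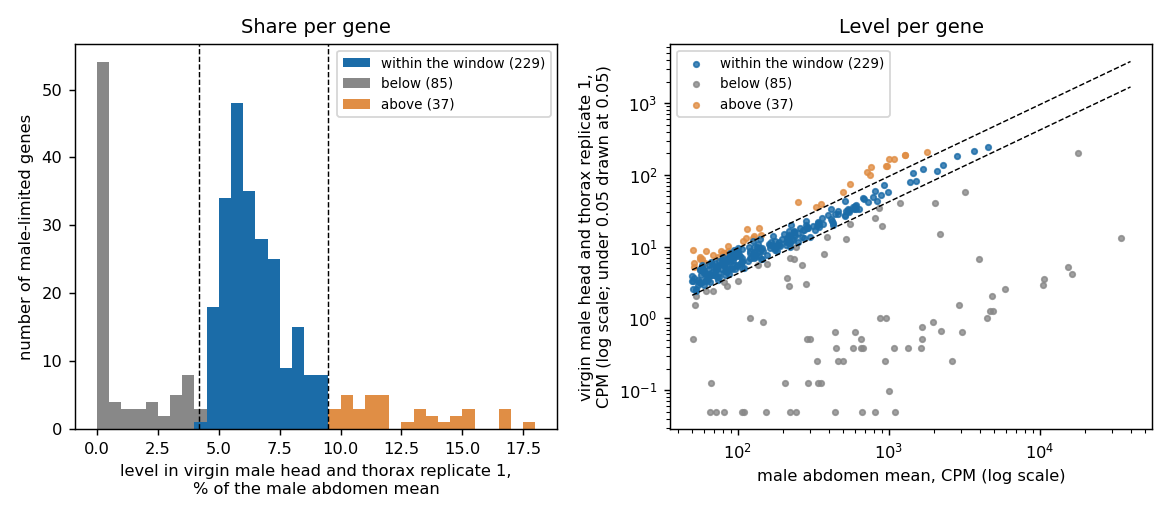
The 351 male-limited genes in virgin male head and thorax replicate 1. Left, number of genes by level there as a percentage of the male abdomen mean; right, level there in CPM against the male abdomen mean in CPM, both on log scales, 1 point per gene. Dashed lines mark the window from 4.2% to 9.5%. The 229 genes within it lie between the lines by construction, while most of the 85 genes below lie near the bottom of the plot.

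In the other male heads and thoraces the members stood far lower, but not at a common level. Their median share of the male abdomen mean was 0.309%, 0.341% and 0.0820% in mated replicates 1 to 3, and 0.0208% and 0.569% in virgin replicates 2 and 3. Virgin replicate 2 had the lowest level for 108 members, and 109 members had no count there at all, while virgin replicate 3 was the highest of these 5 libraries for 141 members and lacked only 6. Mated replicates 1, 2 and 3 lacked 26, 22 and 82 members. For the male-limited genes below the window, the median share was 0.115% in mated replicate 2 and 0.0351% in virgin replicate 3, and virgin replicate 3 was the highest of the 5 libraries for 10 of those 85 genes. The genes below and within the window thus ranked these libraries differently. The 37 genes above the window had a median share of 0.568% in virgin replicate 3, near that of the members. Their median was lowest in virgin replicate 2, at 0.0164%, as for the members, but highest in mated replicate 1, at 2.96%. These differences were described and not tested.

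The average over virgin male heads and thoraces rested on replicate 1. The median member had 0.246% of its male abdomen mean in mated and 2.26% in virgin male heads and thoraces, and 0.309% in virgin ones without replicate 1. In summed CPM the groups had 203 ± 86.2 when mated and 1519 ± 2252 when virgin (SD, n = 3 each). Few members stood above 1% of their male abdomen level outside virgin replicate 1: 6 to 14 in the mated male libraries, and 7 and 30 in virgin replicates 2 and 3. The highest such value was 10.1%, for TR41216|c3_g3 in mated replicate 1, singled out after its values were seen, with 21.7 CPM there and 2.56 and 1.52 CPM in the other mated libraries.

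Unlike male heads and thoraces, female heads and thoraces had not been used to choose the members. Their summed level was 155 ± 56.2 CPM in mated and 126 ± 19.9 CPM in virgin females (SD, n = 3 each). The median share of the male abdomen mean was 0.0669%, 0.221% and 0.0580% in mated replicates 1 to 3 and 0.0727%, 0.0397% and 0.0687% in virgin replicates 1 to 3. Mated replicate 2 stood out: it was the highest of the 6 libraries for 129 members, and 192 members reached 0.1% of their male abdomen level there, against 87 to 103 in the other 5. It stood out in the same way for male-limited genes outside the set, of which 77 of 85 below and 31 of 37 above the window reached 0.1%.

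Female abdomens also held little, as the choice of members required. The median member had 0.0660% of its male abdomen mean there, and 194 of the 229 had a mean under 1 CPM. No count at all was found in any of the 6 libraries for 19 members, whose male abdomen means ran from 50.8 to 229 CPM; a total of 0 counts allows a level of up to 0.0517 CPM over the 6 libraries, counting error only. The summed level was 253 ± 11.0 CPM in mated and 281 ± 76.3 CPM in virgin females (SD, n = 3 each), and 3 genes, TR73921|c1_g1, TR14521|c0_g1 and TR53531|c8_g14, gave 44.7% of it. The highest shares belonged to TR12915|c0_g1, with 4.92, 4.47 and 4.28 CPM in mated and 3.38, 2.94 and 4.49 CPM in virgin female abdomens against a male abdomen mean of 79.4 CPM, and to TR23136|c0_g1, with 3.83, 4.18 and 5.02 CPM in mated and 6.01, 4.79 and 4.39 CPM in virgin female abdomens against 99.4 CPM.

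The question for male abdomens was whether mating changed these genes. Members were on the whole slightly lower in mated males, yet none passed the test. The mean was lower in mated than in virgin males for 216 of 229 members. All 3 mated libraries lay below all 3 virgin ones for 31 members, and above them for 2. The share of all genes that separated in either way was not computed, so nothing is read from the 31 and 2. Over all 14563 genes tested in abdomens, 1.48% were called higher and 1.3% lower in mated males, 2.77% in all. By edgeR's quasi-likelihood test with Benjamini-Hochberg adjustment at 0.05, 0 members were called in either direction, 52 had an unadjusted p under 0.05, and the lowest adjusted p was 0.0587. DESeq2 called 1 member higher and 23 lower, among 10.3% of all genes called, and limma-voom called 3 lower, among 2.64%.

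The median log2 fold change, mated over virgin, was -0.23 for members, with quartiles of -0.29 and -0.17 and a range of -0.45 to 0.37, and 218 of 229 were negative. Over all genes tested the median was -0.06, with 59.8% negative. The male-limited genes below the window had a median of 0.02, with 1 called higher and 1 lower, and those above it a median of -0.03, with 0 called by edgeR and 3 at an unadjusted p under 0.05. The size of the members' shift rested on single libraries. Without mated replicate 1 the median was -0.10, with 189 negative. Without mated replicate 2 it was -0.35, with 3 members called lower, where 1.98% of all genes were called in either direction.

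TR73921|c1_g1 averaged 4154 ± 489 CPM in mated male abdomens and 4965 ± 367 CPM in those of virgins (SD, n = 3 each), and its log2 fold change was -0.29 ± 0.11 (SE; edgeR adjusted p = 0.216). TR69686|c0_g1 averaged 198 ± 25.6 CPM in mated and 244 ± 25.9 CPM in virgin male abdomens, a log2 fold change of -0.33 ± 0.10 (SE; edgeR adjusted p = 0.105). TR26266|c1_g1 averaged 2097 ± 343 CPM in mated and 2068 ± 298 CPM in virgin male abdomens (edgeR adjusted p = 0.994). TR41216|c3_g3 went the other way, with 242 ± 24.8 CPM in mated and 190 ± 21.7 CPM in virgin male abdomens, and did not pass either (edgeR adjusted p = 0.169).

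**Figure D3:**
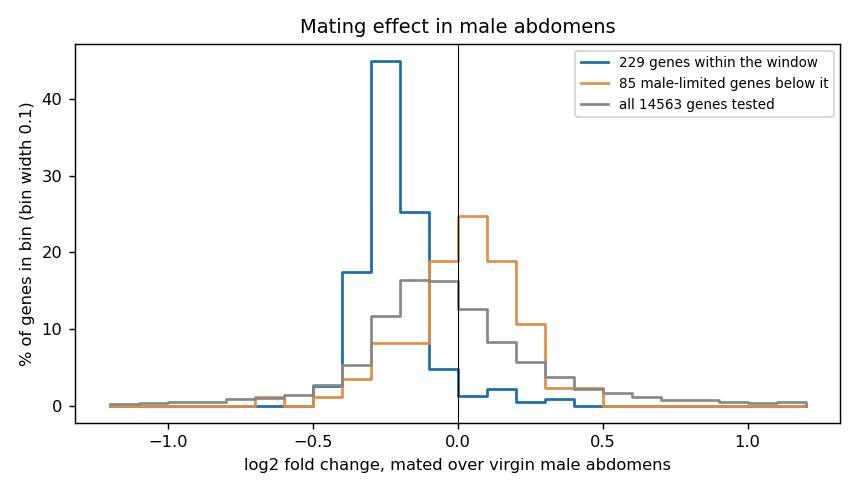
Log2 fold change of mated over virgin male abdomens from edgeR, as the percentage of genes in bins of 0.1, for the 229 members, the 85 male-limited genes below the window and all 14563 genes tested (values beyond 1.2 in either direction are not drawn). The members form a narrow peak left of 0, with a median of -0.23; the genes below the window centre at 0.02 and all genes at -0.06.

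What the members shared in male abdomens was how single libraries ranked. Mated replicate 1 was the lowest of the 6 male abdomens for 203 of 229 members, or 88.7%, and virgin replicate 2 the highest for 164, or 71.6%. Relative to each gene's own mean, the median member stood at 77.0%, 107% and 95.8% in mated replicates 1 to 3 and at 94.9%, 117% and 108% in virgin replicates 1 to 3. Summed CPM ran in the same order, with 53850, 71400 and 64130 in mated and 63420, 76730 and 71350 in virgin males, and the groups overlapped.

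The genes below the window did not rank the libraries in this way. Their medians were 97.8%, 99.6% and 108% in mated and 101%, 94.9% and 97.7% in virgin males, and mated replicate 1 was the lowest library for 22 of 85. The 37 genes above the window shared a part of the members' ranking. Mated replicate 1 was the lowest library for 18 of these 37, at a median of 86.4%. Virgin replicate 2 was the highest for 9 of them and the lowest for 14. The genes below the window took 19.1% ± 1.02 of counts in mated and 17.9% ± 0.808 in virgin male abdomens (SD, n = 3 each), so a share of counts taken by one set bears on the CPM of another. The part of this in the members' ranking was not tested.

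Once each library was divided by the members' median there, the members varied little. The median coefficient of variation between replicates was 16.6% in mated and 11.1% in virgin males as measured, and 5.63% and 4.73% after this division, smaller for 215 and 201 of the 229 genes. For the male-limited genes below the window, divided by their own library medians, it was 7.30% in mated and 6.88% in virgin males before and 5.84% and 5.12% after. All 2973 genes at 50 CPM or more had a median of 6.52% in mated and 5.91% in virgin males before any division. Replicate differences among the members were thus larger than those of a typical abundant gene, and were mostly common to the whole set.

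**Figure D4:**
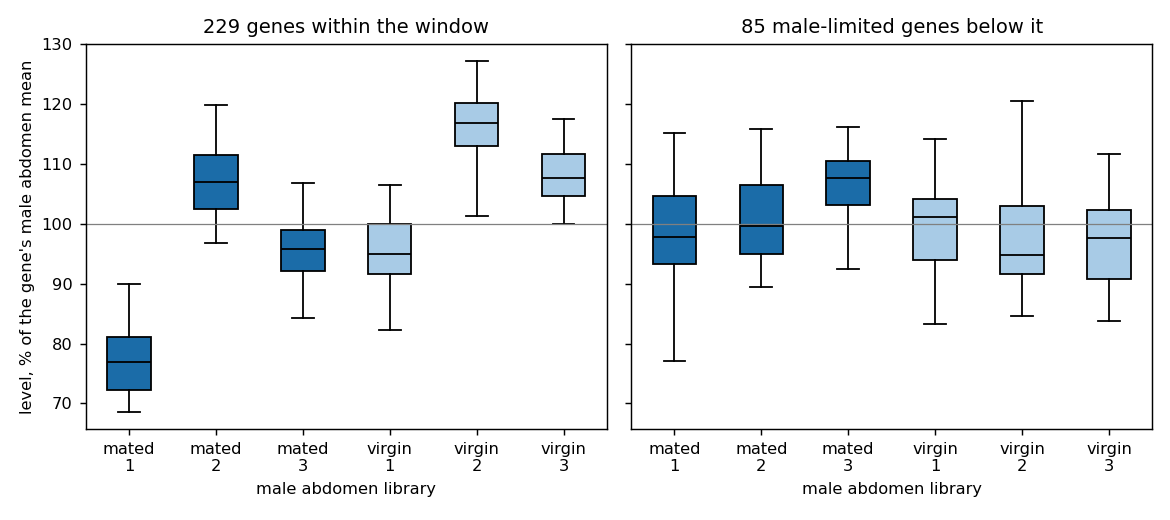
Level in each male abdomen library as a percentage of the gene's mean over the 6 libraries, for the 229 members (left) and the 85 male-limited genes below the window (right); dark boxes are mated, light boxes virgin. Boxes run from lower to upper quartile with a line at the median, and whiskers from the 5th to the 95th percentile. The members sit at a median of 77.0% in mated replicate 1 and 117% in virgin replicate 2, while the medians on the right stay between 94.9% and 108%.

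In female abdomens 1 member was higher in mated than in virgin females and 0 were lower, where 8.18% of all 14563 genes tested were called higher and 6.28% lower, 14.5% in all. By edgeR's quasi-likelihood test, 5 members had an unadjusted p under 0.05. All 229 members entered this test, but through their counts in male abdomens, since only 35 reached a mean of 1 CPM in females; over those 35 the median log2 fold change was 0.03, with 16 lower. The called gene was TR74813|c0_g1. It had 2.26, 2.78 and 2.25 CPM in mated and 1.06, 1.53 and 1.33 CPM in virgin female abdomens, with no overlap, a log2 fold change of 1.02 ± 0.29 (SE; edgeR adjusted p = 0.0405). The call was lost in 13 of 22 alternatives, whose adjusted p ran from 0.00959 to 0.432. It was lost without any 1 female abdomen (edgeR adjusted p = 0.0747 to 0.13) and without mated male replicate 3, virgin male replicate 1 or virgin male replicate 3 (edgeR adjusted p = 0.0526 to 0.0542).

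The sexes differed in the mating effect for the same gene, 1 of 229 members called higher and 0 lower in females relative to males. Among all genes tested 5.23% were called higher and 3.06% lower, 8.28% in all. The members again entered through male abdomens, and 194 of them averaged under 1 CPM in female abdomens. The median SE was 1.19 for members against 0.244 for all genes, so nothing is read from the low number of calls. TR74813|c0_g1 had 102, 139 and 128 CPM in mated and 144, 169 and 150 CPM in virgin male abdomens, and its log2 fold change in males was -0.36 ± 0.11 (SE; edgeR adjusted p = 0.106). The difference, females minus males, was 1.37 ± 0.31 on the log2 scale (SE; edgeR adjusted p = 0.0217), and it was lost in 5 of 21 alternatives, with adjusted p from 0.00121 to 0.411. Among them were the fits without mated female replicate 2, virgin female replicate 1 and virgin female replicate 3, with edgeR adjusted p of 0.0723, 0.0709 and 0.0564.

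A single virgin female abdomen stood high for 8 of the 35 members with at least 1 CPM in female abdomens, though not for TR73921|c1_g1 or TR1055|c0_g1, whose levels are given above. TR14521|c0_g1, TR53531|c8_g14, TR15150|c0_g1, TR62685|c0_g1 and the 4 members of the component TR53318|c0 were at least 2-fold higher in virgin female replicate 1 than in the mean of the other virgin females, and they were singled out for this. Their summed level was 104, 99.6 and 95.9 CPM in mated and 188, 59.8 and 49.0 CPM in virgin female abdomens. The other members summed to 152, 162 and 144 CPM in mated and 176, 206 and 164 CPM in virgin females. Without virgin female replicate 1, edgeR called 9.85% of all genes in either direction. Of the members it called 5 higher in mated females, TR14521|c0_g1, TR53531|c8_g14, TR53318|c0_g1, TR53318|c0_g2 and TR53318|c0_g4, and no longer TR74813|c0_g1. All 5 belong to the 8 genes singled out for their high level in that library, and leaving it out lowers their virgin mean by construction, so these calls are a description only.

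Female abdomens and female heads and thoraces were compared within females. The choice of members capped the female abdomen and did not use female heads and thoraces. It also capped the median of male heads and thoraces, at 2% of the male abdomen mean, and 19 genes failed that limit alone. Head and thorax levels can be alike in both sexes, as for TR15954|c0_g2 below. For genes of this kind that limit also kept out high female head and thorax levels, which could tilt the comparison toward the abdomen. The size of such a tilt was not tested. Members called in either direction were found, and the balance between them depended on which members had counts enough to be tested. Only 39 of 229 members had counts enough for the test; 15 of these met a minimum of 10 counts in 3 abdomens alone and none in 3 heads and thoraces alone, so genes higher in the abdomen had a better chance of being tested, and the counts below describe these 39 and not the whole set. Of them 14 were higher in the abdomen, 3 lower and 22 not called by edgeR's quasi-likelihood test, where 37.5% of all 13695 genes tested were called higher and 37.7% lower, 75.2% in all. The share of members called higher was thus near the background, and nothing is read from it. The median log2 difference, abdomen minus head and thorax, was 0.55 for these 39 members and 0.01 for all genes, and its sign turned once more members entered. Without the low-count filter it was -0.64 over 224 members, 150 of them negative, and the median of all genes was -0.13. Of those members 15 were called higher and 12 lower, where 44.7% of all genes were called in either direction. With all 24 libraries in the fit the median log2 difference was -0.40 over 229 members, 140 of them negative, and that of all genes was 0.23. There 10 members were called higher and 0 lower, where 69% of all genes were called. Scaling by library size alone moved the median of the 39 members to 1.06 and that of all genes to 0.52. The number of members called higher was then 23, where 78.2% of all genes were called in either direction.

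TR53318|c0_g1 had 10.03, 10.3 and 9.94 CPM in mated and 20.2, 7.30 and 5.10 CPM in virgin female abdomens, against 2.02, 2.62 and 2.49 CPM in mated and 1.55, 1.52 and 3.41 CPM in virgin female heads and thoraces. Its log2 difference was 1.69 ± 0.33 (SE; edgeR adjusted p = 0.000761), and every abdomen lay above every head and thorax. The other 3 members of its component were also called higher, by 1.40 to 1.51 on the log2 scale, and the 4 may share reads. TR23136|c0_g1, with abdomen levels given above, had 0.831, 0.764 and 0.650 CPM in mated and 1.43, 1.198 and 1.70 CPM in virgin female heads and thoraces, a log2 difference of 1.65 ± 0.17 (SE; edgeR adjusted p = 4.21e-06). TR14521|c0_g1 was higher by 1.50 ± 0.32 (edgeR adjusted p = 0.00163) and TR73921|c1_g1 by 0.51 ± 0.18 on the log2 scale (edgeR adjusted p = 0.0252; 0.0557 without mated and 0.0534 without virgin female abdomen replicate 2). The largest difference was 3.13 ± 0.57 for TR15150|c0_g1 (edgeR adjusted p = 0.000441), singled out after its values were seen. This gene did not reach 3 counts in every female library. It is also among the genes named above as high in virgin female abdomen replicate 1, so the size of its difference is imprecise.

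Of the members lower in the female abdomen, TR15954|c0_g2 stood out for even levels across all heads and thoraces but one. TR15954|c0_g2 had 6.78, 7.56 and 8.98 CPM in mated and 8.97, 10.9 and 7.35 CPM in virgin female abdomens, against 10.2, 12.7 and 11.8 CPM in mated and 11.6, 13.8 and 11.6 CPM in virgin female heads and thoraces. Male heads and thoraces had 13.4, 11.5 and 14.0 CPM when mated and 72.0, 10.9 and 15.0 CPM when virgin, so this gene had a level of 10.2 to 15.0 CPM in 11 heads and thoraces of both sexes, which virgin male replicate 1 exceeded. Its log2 difference in females was -1.03 ± 0.12 (SE; edgeR adjusted p = 1.27e-05). TR70877|c0_g1 had 1.48, 1.49 and 1.82 CPM in mated and 1.37, 1.63 and 1.12 CPM in virgin female abdomens, against 2.26, 1.96 and 2.49 CPM in mated and 2.75, 1.85 and 2.92 CPM in virgin female heads and thoraces (log2 difference -1.19 ± 0.20, SE; edgeR adjusted p = 0.00026). A fit of all 24 libraries was the 1 alternative of 21 that ended each of these calls, with edgeR adjusted p of 0.0698 for TR15954|c0_g2 and 0.136 for TR70877|c0_g1.

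The last member lower in the female abdomen was TR69690|c0_g1, whose abdomen levels are given above. In female heads and thoraces it had 0.831, 5.46 and 1.30 CPM when mated and 0.716, 0.218 and 0.851 CPM when virgin. Its log2 difference of -1.64 ± 0.58 (SE; edgeR adjusted p = 0.0235) rested on mated female replicate 2, the library in which members stood high, and was -0.99 without it (edgeR adjusted p = 0.122). The call was also lost without mated female abdomen replicate 2 or 3, virgin female abdomen replicate 1 or 3, or virgin female head and thorax replicate 1 or 3 (edgeR adjusted p = 0.0511 to 0.0608).

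**Figure D5:**
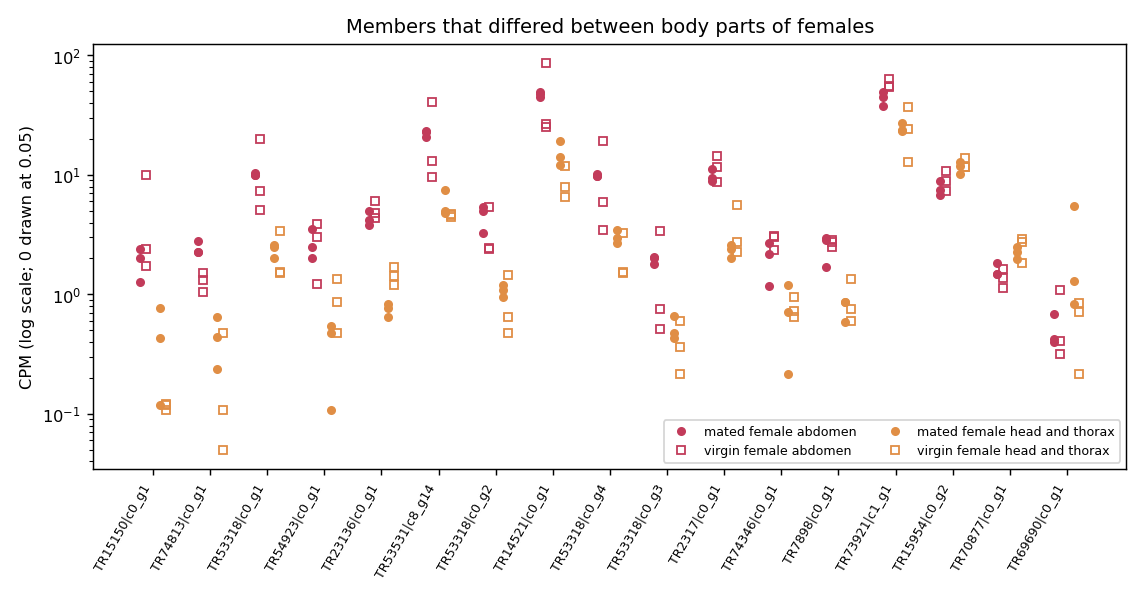
CPM of the 17 members called between body parts of females, in female abdomens (red) and female heads and thoraces (orange), on a log scale with 0 drawn at 0.05; filled circles are mated and open squares virgin libraries. The 14 genes on the left are higher in the abdomen and the 3 on the right, from TR15954|c0_g2, lower; the high orange point of TR69690|c0_g1 is mated female head and thorax replicate 2, at 5.46 CPM.

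The 229 members had 535 listed transcripts. A single transcript was listed for 118 members, and 2 or more for 111, up to 23 for TR17086|c0_g1 and 18 for TR66864|c1_g1. In male abdomens the leading transcript of these 111 held a median of 68.3% of the gene's transcript counts, and at least 90% in 22 genes. It was the same transcript in mated and virgin male abdomens for 108 of 111, with a median difference in its share of 2.23 percentage points. Transcripts of a gene share sequence, and in 32 members the sum over transcripts missed the gene count by over 0.5. In male abdomens the ratio of that sum to the gene count had a median of 0.992 in these 32. Its lower quartile was 0.620 and its lowest value 0.0374, so in some members the transcripts hold only a part of the gene's counts. Single transcript values are thus less certain than gene values.

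Of 456 members' transcripts tested, 0 were called between mated and virgin male abdomens by edgeR's quasi-likelihood test, and 15 had an unadjusted p under 0.05. Of all 27729 transcripts tested, edgeR called 0.173% higher and 0.0721% lower, 0.245% in all. Limma-voom called 4 of the members' transcripts lower, and 0.418% of all transcripts in either direction. Of 104 members with at least 2 tested transcripts, the log2 fold changes of mated over virgin males were all negative in 47, all positive in 3 and of mixed sign in 54. TR17086|c0_g1 had its leading transcript at a log2 fold change of -0.36 ± 0.16 (SE; edgeR adjusted p = 0.573).

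In virgin male head and thorax replicate 1, the same transcript led as in male abdomens for 89 of the 111 genes. Its share there differed from that in male abdomens by a median of 10.5 percentage points. The male abdomen share lay inside the exact 95% binomial interval of that library, which covers counting error only, for 46 of 111 genes. The share in that library lay inside the range of the 6 male abdomens for 33 of 111 genes, where a single male abdomen lay inside the range of the other 5 for 70 to 80. The counts per transcript are estimates, and the error of dividing reads among transcripts of a gene is not part of that interval.

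For TR17086|c0_g1 the leading transcript held 32.0% in that library (95% exact binomial interval 20.0% to 47.5%) and 38.4% in male abdomens. For TR66864|c1_g1 it held 36.4% (27.7% to 46.5%) and 38.8%, and for TR73921|c1_g1 61.5% (59.3% to 63.7%) and 59.0%. The gene that differed most among the 6 most abundant was TR28181|c0_g1, whose leading transcript held 0.142% in that library (0.00265% to 0.583%, on 954 counts) and 39.1% in male abdomens, from 20.8% to 47.2% by library. Its gene level there, 122 CPM or 7.23% of the male abdomen mean, lay in the window as the rule required. Whether other transcripts were present or reads were divided otherwise among its 15 listed transcripts was not tested.

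By their IDs the members came from 224 components. Only 8 shared a component with another member: the 4 of TR53318|c0, the pair TR52666|c1_g2 and TR52666|c1_g3, and the pair TR9401|c0_g4 and TR9401|c0_g6. With any listed gene, 56 members or 24.5% shared a component, against 39.8% of all listed genes. The set was thus not made of a few components. Whether members belong to common gene families cannot be told from the IDs.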

How the data were processed

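The authors deposited expected counts, that is estimated and unnormalised counts, of genes and of transcripts, in 1 column for each library; 13.9% of values for genes have a fraction. Reads were checked or handled with Bowtie 0.12.6, Trimmomatic 0.3, cutadapt 1.2.1 and FastQC 0.11.2, per the submitters' processing notes, and per the labels' protocols the libraries came from a stranded mRNA kit and each was run on 2 lanes. The counting program, the reference and any use of strand were not given in the sources used here, so the split of reads between near-identical, overlapping or antisense genes is unknown. Counts were rounded and tested with edgeR 4.0.16 in R 4.3.3 (TMM scaling, filterByExpr, robust quasi-likelihood test, 1 mean per group, Benjamini-Hochberg adjustment over all genes tested, threshold 0.05). The 12 abdomen libraries, or the 12 female libraries, entered a fit together. Standard errors are the absolute log2 fold change over the square root of F. CPM uses column totals. At the depths given, 3 counts correspond to 0.295 to 0.384 CPM per library, so levels below that are imprecise.

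The members and lists were chosen with earlier results of these data known. Members named are the 6 most abundant, up to 2 higher and 2 lower per comparison with at least 3 counts in every library compared, the lowest, median and highest in the window, the 2 with the highest female share and the 2 with the most transcripts; others are named with the reason. Alternatives were DESeq2's size factors in edgeR, library size only, no low-count filter or 1 CPM in 3 libraries, DESeq2 1.42.0, limma-voom (limma 3.58.1), no robust estimation, all 24 libraries or the 6 compared, a replicate block, each library left out, other limits for membership (100 CPM, 1/64, 3% to 13%), TMM-scaled sums and sums without the 5 most abundant members. The tests were tested on simulated data. The number of columns left unused for want of a sample was 0.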

Additional observations from a re-analysis of the deposited data

Results flagged for a closer look

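For TR74813|c0_g1 the mating effect differed between the sexes: mated over virgin abdomens was higher in females and lower in males, a difference, females minus males, of 1.37 on the log2 scale (edgeR adjusted p = 0.0217). It was higher in 3 of 3 mated females than in any virgin female, and lower in 3 of 3 mated males than in any virgin male, where the effect in males alone did not pass the test. It was 1 of 229 members with such a call, where 8.28% of all genes tested had one in either direction. Since 194 members averaged under 1 CPM in female abdomens, nothing is read from that low number. The call was lost in 5 of 21 alternatives.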

How the results depend on the processing

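No member named with a call changed direction under the alternatives run, but the median body part difference of members in females turned negative without the low-count filter (-0.64) and with all 24 libraries (-0.40), against 0.55 as reported. In male abdomens the number of members called lower, 0 as reported, was 23 by DESeq2 (with 1 called higher) and 3 by limma-voom. With a library left out it was 0 to 3, and limma-voom called 4 of the members' transcripts lower. The wider window took in 266 genes in the reported fit, all 229 members among them. It gave 1 gene called lower, and the calls it added here and below were in genes that are not members. In female abdomens the number called higher, 1 as reported, was 0 with library size only, without a low-count filter, by limma-voom and with all 24 libraries, 2 by DESeq2 and with the wider window, and 0 to 5 with a library left out. The number lower there, 0 as reported, was 2 with library size only, 4 by DESeq2 and 0 to 2 with a library left out, 2 without mated male replicate 1. The difference between the sexes was called higher in 3 members by DESeq2 (with 1 lower), in 0 by limma-voom and with all 24 libraries, in 2 with the wider window and in 0 to 5 with a library left out, 5 without virgin female replicate 1. Between body parts of females, 23 members were higher with library size only, and lower ones numbered 12 without a low-count filter, which tested 224 members, and 0 with all 24 libraries. Over the alternatives, the share of all genes called in either direction was 0.803% to 10.3% in male abdomens and 6.55% to 25.8% in female abdomens. For the difference between the sexes it was 3.73% to 14.6%, and DESeq2 gave the upper value in each of these comparisons. Between body parts of females the share was 44.7% to 78.2%. The causes of the changes among members were not tested. The tests treated the samples as unpaired. Over all genes tested, correlations between same-numbered libraries were -0.0525 to 0.0424, so no deviation shared by replicate number was seen over genes at large. Such correlations cannot show whether equal numbers mark a common origin, and male abdomens were not checked against male heads and thoraces. The members were not checked alone. Their medians in male abdomens were 77.0%, 107% and 95.8% in mated and 94.9%, 117% and 108% in virgin replicates 1 to 3. Replicate 1 was thus lowest and replicate 2 highest in both groups, and whether the members share a deviation by number was not tested. With the replicate block, 4 members were lower in mated male abdomens, where 2.03% of all genes were called. There 115 members had an unadjusted p under 0.05 by edgeR, against 52 without the block. With the block 1 member was also lower in mated female abdomens and 2 were higher in the difference between the sexes, and no other count of calls changed. The summed level of members in mated over virgin abdomens was 0.895 in males (0.837 to 0.961 over the alternatives) and 0.900 in females (0.804 to 1.06, above 1 without virgin female replicate 1). In female abdomens, depth limits what can be seen, since 194 members averaged under 1 CPM.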
